A study of Mus musculus with 2 samples.

Results

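TRBD1 and TRBD2 are the diversity (D) segments of the mouse TCR beta locus. Their use was read from the TCR beta (TRB) contigs of thymic CD4 SP T cells, taking every TRB contig whose annotated D segment was TRBD1 or TRBD2 and setting these against the TRB contigs with no D segment given. Of 9322 TRB chains in both libraries, 2153 carried a D call. The WT library had 973 called chains of 4141, 692 with TRBD1 and 281 with TRBD2, and the Btla-/- library had 1180 of 5181, 817 with TRBD1 and 363 with TRBD2. The D call was missing in 3168 WT and 4001 Btla-/- chains.

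The study compared the TCR repertoires of WT mice (strain C57BL/6J) and mice lacking the co-inhibitory receptor BTLA (C57BL/6-Btla KO, here Btla-/-), both aged 8 to 12 weeks. Thymocytes were enriched for CD4 SP T cells by negative selection with a kit for naive CD4 T cells, and TCR transcripts were amplified from single cells with the 10x Genomics V(D)J assay, in which every read is tagged with the barcode of its cell and with a UMI, a tag of the single transcript it came from. Each genotype was 1 library, the number of mice behind it was not given, and no test between genotypes was made. The libraries held TCR transcripts and no other genes, so neither the loss of Btla nor the CD4 identity of the cells could be checked.

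A TCR beta chain is assembled in the thymus in steps. A D segment is first joined to a joining (J) segment, and a variable (V) gene is then joined to the DJ unit. At each joint the RAG recombinase cuts at recombination signal sequences, exonucleases remove bases from the ends, and terminal transferase adds untemplated (N) bases, so that the D segment lies in the middle of CDR3, the loop that faces the peptide, and is often cut down to a short remnant.

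TRBD1 (ENSMUSG00000095668.1) lies on the plus strand of GRCm38 at chr6:41533201-41533212 and is 12 bases long. TRBD2 (ENSMUSG00000094569.1) lies 8962 bases further on, at chr6:41542163-41542176 on the same strand, and is 14 bases long. Both are shown with their recombination signals, because the remnants in CDR3 were compared with them. The sequences are those of the RefSeq copy of GRCm38, covering 41533173 to 41533251 and 41542135 to 41542215, and capitals mark the D segment.
TRBD1: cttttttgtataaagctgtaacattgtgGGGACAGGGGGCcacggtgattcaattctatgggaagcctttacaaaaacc
TRBD2: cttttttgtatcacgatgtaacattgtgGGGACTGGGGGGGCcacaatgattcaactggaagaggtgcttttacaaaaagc
TRBD1 holds no T, and TRBD2 holds a single T followed by a run of 7 G, whereas the G run of TRBD1 has 5.

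**Figure D1:**
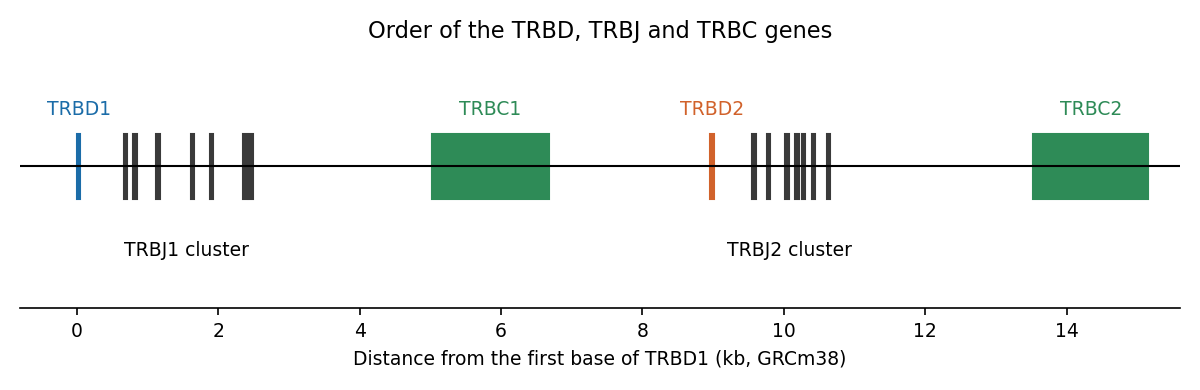
Positions of TRBD1, TRBD2, the TRBJ segments (black) and the TRBC genes (green) on the plus strand of the beta locus, as distance from the first base of TRBD1 in kb. D and J segments are drawn wider than their true length so that they can be seen. TRBD2 lies 8.962 kb after TRBD1 and after the whole TRBJ1 cluster, which starts at 0.663 kb.

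The order of the locus restricts the joints. The TRBJ1 segments lie between TRBD1 and TRBC1, and of those seen in these chains TRBJ1-1 was the first, at 0.663 kb after the start of TRBD1, and TRBJ1-6 the last, at 2.353 kb. The annotation also lists TRBJ1-7, at 2.441 kb. The TRBJ2 segments lie between TRBD2 and TRBC2, from TRBJ2-1 at 9.553 kb to TRBJ2-7 at 10.609 kb. A deletional D to J joint therefore allows TRBD1 with either cluster and TRBD2 with TRBJ2. In all 4132 WT and 5151 Btla-/- TRB chains with a C gene given, the number of the C gene was that of the J cluster.

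Chains with a nearly intact D segment show how the call maps onto the sequence. The following CDR3s, printed from the codon of the first Cys to that of the last Phe, had the longest match to the called segment within their kind, and capitals mark the matched bases. The first 2 were from the Btla-/- library, with 87 and 59 UMIs, and the third from the WT library, with 72 UMIs.
TRBV13-3, TRBD1, TRBJ1-5: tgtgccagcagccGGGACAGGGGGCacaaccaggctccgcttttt
TRBV12-2+TRBV13-2, TRBD1, TRBJ2-1: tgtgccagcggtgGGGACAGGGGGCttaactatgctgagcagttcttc
TRBV3, TRBD2, TRBJ2-1: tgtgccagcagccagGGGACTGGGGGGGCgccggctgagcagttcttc
The whole segment was kept in each of these. TRBV12-2+TRBV13-2 is a joint call of the deposited annotation for V genes that it did not separate.

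In both libraries fewer than 1 in 4 beta chains carried a D call, and TRBD1 was called more often than TRBD2. The D call rate was 23.5% of WT chains (exact 95% binomial interval, 22.2 to 24.8%) and 22.8% of Btla-/- chains (21.6 to 23.9%). TRBD1 was given to 16.7% of WT and 15.8% of Btla-/- chains, and TRBD2 to 6.79% and 7.01%. Of the called chains, TRBD1 made up 71.1% in WT (68.2 to 74.0%) and 69.2% in Btla-/- (66.5 to 71.9%). The intervals of the libraries overlapped for each of these shares. They cover counting error alone, and chains of 1 library share their source and are not replicates.

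Depth was alike for chains with and without a call. The median UMI count was 12 for TRBD1, 13 for TRBD2 and 13 for missing calls in WT, and 10, 9 and 10 in Btla-/-. The call rate showed no steady trend with UMIs. It was 31.0% of the 87 WT chains and 29.3% of the 140 Btla-/- chains with 1 or 2 UMIs, 21.7% and 21.0% with 3 or 4, 24.2% and 24.0% with 5 to 9, and 23.2% and 22.1% with 10 or more. Chains that shared V, J and CDR3 nucleotides within a library, 119 such sets in WT and 221 in Btla-/-, had the same D call in each set, and 30 cell barcodes occurred in both libraries.

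The J cluster divided the D segments sharply. TRBD1 was found with both clusters, 355 WT chains with TRBJ1 and 337 with TRBJ2, and 444 and 373 Btla-/- chains. TRBD2 was joined to TRBJ2 in 278 of 281 WT chains and 362 of 363 Btla-/- chains. The TRBJ1 share was thus 51.3% (47.5 to 55.1%) of WT TRBD1 chains and 54.3% (50.9 to 57.8%) of Btla-/- TRBD1 chains, against 1.07% (0.221 to 3.09%) and 0.275% (0.00697 to 1.53%) of TRBD2 chains. Chains with a missing call, which were most chains, had a TRBJ1 share of 40.8% in each library. This was near the share over all TRB chains, 39.8% in WT and 40.1% in Btla-/-.

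Call rates were close in the clusters, with overlapping intervals in each library. Among chains with TRBJ1 it was 21.7% of 1649 WT chains (19.7 to 23.8%) and 21.4% of 2079 Btla-/- chains (19.7 to 23.2%). Among chains with TRBJ2 it was 24.7% of 2492 (23.0 to 26.4%) and 23.7% of 3102 (22.2 to 25.2%). Where both segments could be used, with TRBJ2, the deposited calls were divided almost evenly, with TRBD1 in 54.8% of called WT chains (50.8 to 58.8%) and 50.7% of called Btla-/- chains (47.1 to 54.4%).

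**Figure D2:**
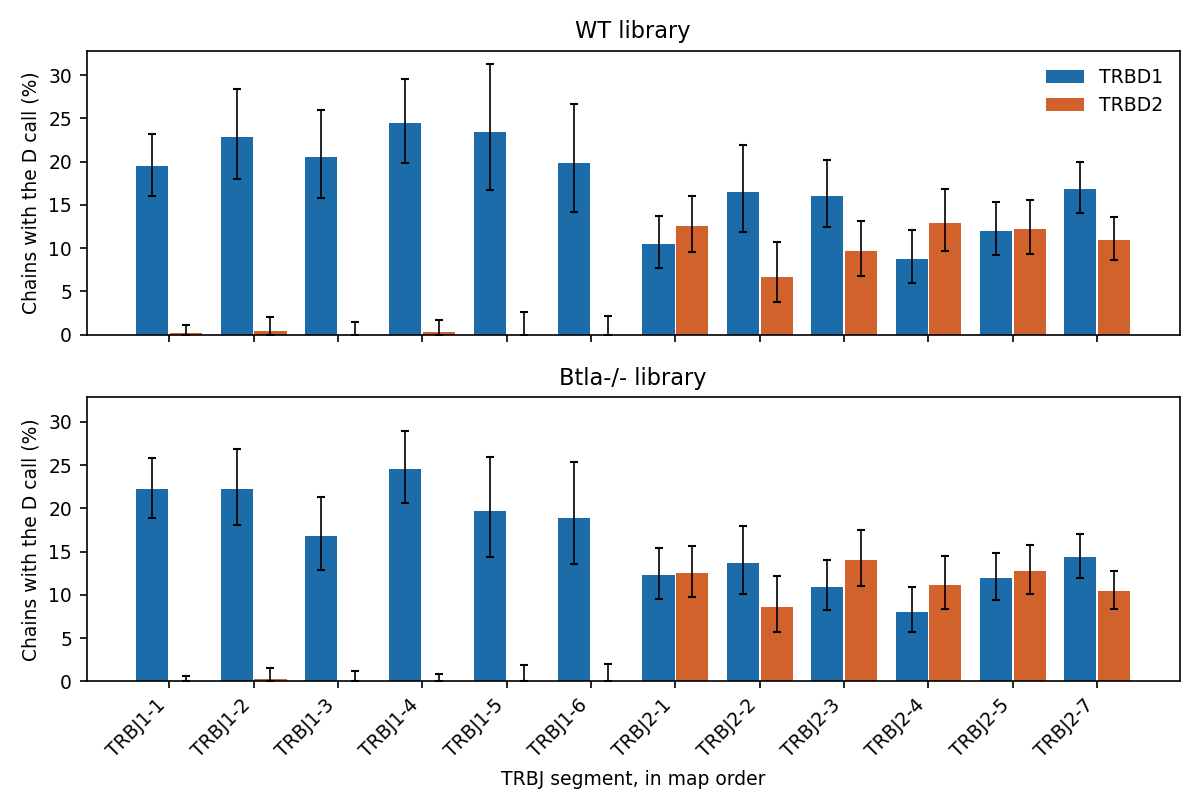
Percent of TRB chains called TRBD1 (blue) or TRBD2 (orange) for each of the 12 TRBJ segments seen, in map order, in the WT library (top) and the Btla-/- library (bottom). Bars are shares of all chains with that J segment, and error bars are exact 95% binomial intervals for counting error. TRBD2 is at or near 0 over the TRBJ1 cluster and reaches 14.0% at TRBJ2-3 in Btla-/-.

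By single J segment, the call rate ranged from 19.7% (TRBJ1-1) to 27.8% (TRBJ2-7) in WT and from 16.8% (TRBJ1-3) to 24.9% (TRBJ2-3) in Btla-/-. The intervals of both libraries overlapped for each of the 12 segments. Within the TRBJ2 cluster, the TRBD1 share of called chains was 45.5% and 49.6% for TRBJ2-1 (WT and Btla-/-), 71.2% and 61.4% for TRBJ2-2, 62.4% and 43.7% for TRBJ2-3, 40.3% and 41.9% for TRBJ2-4, 49.5% and 48.3% for TRBJ2-5, and 60.7% and 57.9% for TRBJ2-7. No order along the map was seen in these shares. TRBJ2-2 had the highest and TRBJ2-4 the lowest TRBD1 share in both libraries. The largest difference between the libraries was at TRBJ2-3, where TRBD1 was called in 58 of 93 WT chains (51.7 to 72.2%) and 52 of 119 Btla-/- chains (34.6 to 53.1%), and these intervals overlapped.

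The 4 TRBD2 calls with a TRBJ1 segment were examined one by one, since this joint is not open to deletion. They were 3 of 358 called WT chains with TRBJ1, or 0.838% (0.173 to 2.43%), and 1 of 445 Btla-/- chains, or 0.225% (0.00569 to 1.25%). The first 3 below are WT chains with 28, 6 and 4 UMIs, and the last is a Btla-/- chain with 9 UMIs. Capitals mark the bases shared with TRBD2.
TRBV20, TRBJ1-1: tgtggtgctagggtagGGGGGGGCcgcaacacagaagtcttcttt
TRBV31, TRBJ1-2: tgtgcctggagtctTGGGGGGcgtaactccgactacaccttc
TRBV12-2+TRBV13-2, TRBJ1-4: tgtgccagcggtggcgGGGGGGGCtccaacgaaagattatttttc
TRBV20, TRBJ1-2: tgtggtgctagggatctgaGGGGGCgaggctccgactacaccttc
The match to TRBD2 was 8, 7, 8 and 6 bases, mostly G, and in the last chain TRBD1 matched over 7 bases and so better than TRBD2. All 4 chains carried TRBC1. Whether any of the 4 was a true TRBD2 joint was not tested.

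The V gene was joined after the D segment, and the call rate differed between V subgroups. Of the 16 V subgroups with at least 100 chains in each library, the call rate was highest, by the mean of the libraries, for TRBV10, 26.3% (20.2 to 33.2%) in WT and 28.0% (23.1 to 33.4%) in Btla-/-, and for the joint call TRBV12-2+TRBV13-2, 27.7% and 26.2%. It was lowest for TRBV26, 19.7% (13.4 to 27.4%) and 16.4% (11.7 to 22.2%), and for TRBV29, 18.2% and 18.1%. The intervals of TRBV10 and TRBV26, the extremes of the 16, overlapped in WT and not in Btla-/-. The intervals of the libraries overlapped for all 16 subgroups.

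TRBV26 and TRBV29 also had the highest TRBD1 share of called chains, by the same mean. It was 81.5% (61.9 to 93.7%) and 94.1% (80.3 to 99.3%) for TRBV26 and 90.3% (74.2 to 98.0%) and 80.5% (65.1 to 91.2%) for TRBV29. It was lowest for TRBV10, 62.0% (47.2 to 75.3%) and 55.8% (44.7 to 66.5%), and for TRBV16, 63.0% (48.7 to 75.7%) and 61.0% (49.2 to 72.0%). J use differed between these subgroups too. Chains with TRBJ2 made up 50.4% and 53.6% of TRBV26 chains and 54.7% and 46.3% of TRBV29 chains, against 63.7% and 66.1% for TRBV10 and 67.7% and 61.7% for TRBV16. Over the 16 subgroups TRBV17 had the highest TRBJ2 share, 71.6% and 69.6%, and ranked 13 by TRBD1 share. TRBV3, which ranked 6, had a TRBJ2 share of 58.6% in WT and 67.4% in Btla-/-. Whether J use accounts for the TRBD1 shares of the subgroups was not tested. With TRBJ2 alone, TRBD1 was called in 15 of 20 and 15 of 17 called TRBV26 chains, 15 of 18 and 12 of 20 TRBV29 chains, 11 of 30 and 26 of 64 TRBV10 chains, and 17 of 37 and 20 of 50 TRBV16 chains.

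Every CDR3 was then compared with the germline segments. The germline V and J bases were trimmed from each CDR3, and the longest exact run shared with TRBD1 or TRBD2 was found in the bases left between them. This measure comes from the same contigs as the call, but it is computed in the same way for chains with and without one. The median run shared with the called segment was 9 bases for TRBD1 and 11 bases for TRBD2 in both libraries. The whole segment was kept in 54 of 692 WT (7.80%) and 54 of 817 Btla-/- (6.61%) TRBD1 chains, and in 34 of 281 (12.1%) and 47 of 363 (12.9%) TRBD2 chains. A called D segment was therefore mostly a trimmed one.

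TRBD2 calls and TRBD1 calls differed in how well they fit the germline. Of the TRBD2 calls, 281 of 281 in WT and 361 of 363 in Btla-/- shared a longer run with TRBD2 than with TRBD1. Of the TRBD1 calls, 609 of 692 (88.0%) and 739 of 817 (90.5%) shared a longer run with TRBD1, but 74 (10.7%, 8.49 to 13.2%) and 63 (7.71%, 5.98 to 9.76%) shared a longer run with TRBD2. These were nearly all TRBJ2 chains. With TRBJ2, 70 of 337 (20.8%, 16.6 to 25.5%) and 60 of 373 (16.1%, 12.5 to 20.2%) TRBD1 calls matched TRBD2 better, and with TRBJ1, 4 of 355 and 3 of 444 did.

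A share of the chains with no call kept a recognizable piece of a D segment. In chains with no call the median of the longest shared run was 6 bases, and 1444 of 3168 in WT (45.6%) and 1763 of 4001 in Btla-/- (44.1%) shared no run of 6 bases or more. A run of 8 or more was nevertheless found in 641 WT chains (20.2%, 18.9 to 21.7%) and 857 Btla-/- chains (21.4%, 20.2 to 22.7%). Most of these used TRBJ2, 542 and 716, which is 28.9% and 30.2% of missing calls with TRBJ2, against 7.67% and 8.63% of missing calls with TRBJ1.

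The chains below illustrate this. The first 2 are the chains without a call that had most UMIs in each J cluster, a Btla-/- chain with 168 UMIs and a WT chain with 222, and capitals mark all bases between V and J. The other two were chosen after their values were seen, and capitals mark the run shared with TRBD2. The third, a Btla-/- chain with 144 UMIs, had no call although 12 bases matched TRBD2, and the last, a Btla-/- chain with 29 UMIs, was called TRBD1 with 11 bases matching TRBD2 and 5 matching TRBD1.
TRBV14, no call, TRBJ1-4: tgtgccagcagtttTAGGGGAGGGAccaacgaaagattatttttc
TRBV23, no call, TRBJ2-5: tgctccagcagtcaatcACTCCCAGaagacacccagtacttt
TRBV16, no call, TRBJ2-1: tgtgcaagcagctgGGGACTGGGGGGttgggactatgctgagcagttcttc
TRBV2, called TRBD1, TRBJ2-7: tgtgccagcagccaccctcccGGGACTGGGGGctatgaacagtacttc

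Long TRBD2 remnants were left without a call more often than long TRBD1 remnants. Among TRBJ2 chains whose longer run was TRBD2 with 8 or more bases, 789 in WT and 1018 in Btla-/-, the call was TRBD2 in 271 (34.3%) and 352 (34.6%), TRBD1 in 57 (7.22%) and 47 (4.62%), and missing in 461 (58.4%, 54.9 to 61.9%) and 619 (60.8%, 57.7 to 63.8%). Among TRBJ2 chains whose longer run was TRBD1 with 8 or more bases, 306 and 360, the call was missing in 80 (26.1%, 21.3 to 31.4%) and 97 (26.9%, 22.4 to 31.8%). The intervals for TRBD1 and TRBD2 remnants did not overlap in either library. The remnants are not alike, since 8 bases are a smaller part of TRBD2, with 14 bases, than of TRBD1, with 12. Runs of 13 or 14 bases of TRBD2 were all called TRBD2 in both libraries.

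**Figure D3:**
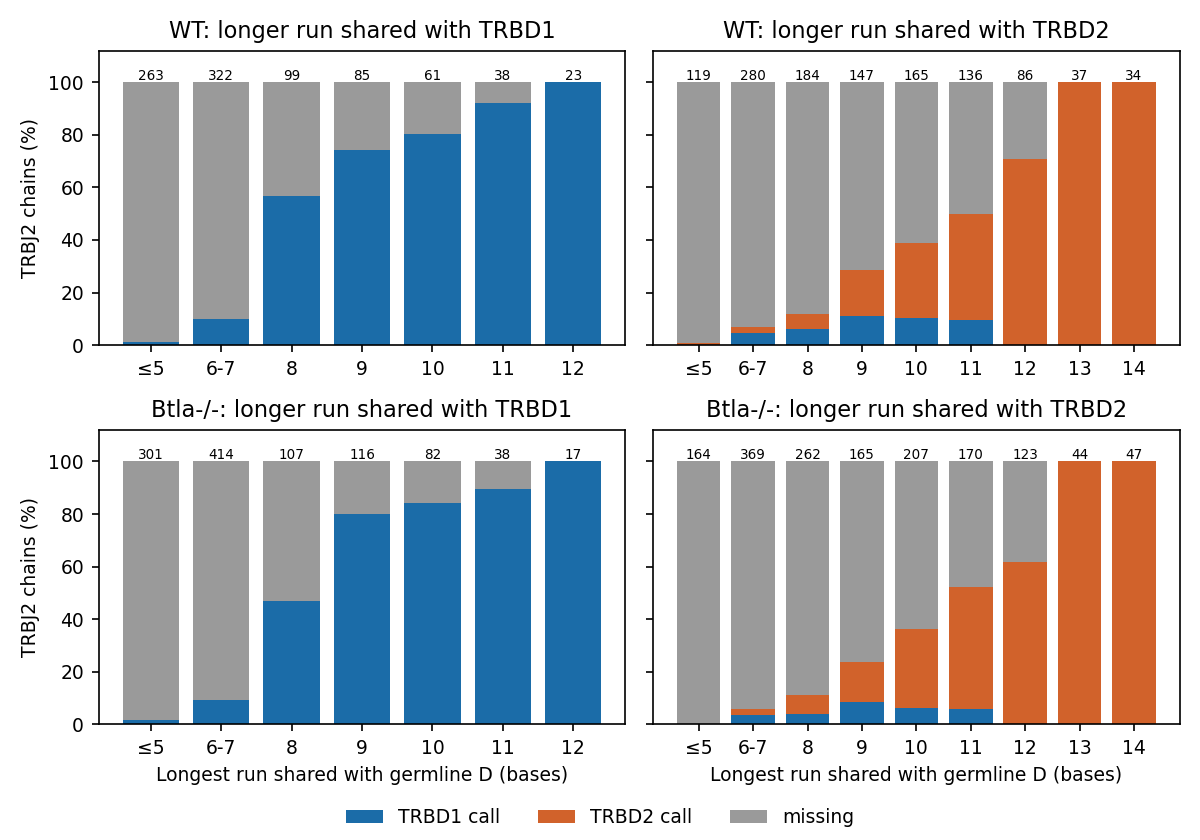
Deposited D call of TRBJ2 chains by the length in bases of the longest run shared with germline TRBD1 (left) or TRBD2 (right), in WT (top) and Btla-/- (bottom). Stacked bars give percent of chains called TRBD1 (blue), TRBD2 (orange) or missing (grey), and the number over each bar is its number of chains. Chains that share 12 bases with TRBD1, its whole length, were all called, and so were chains that share 13 or 14 bases with TRBD2. Runs of 12 bases of TRBD2, which are less than its whole length, were called TRBD2 in 70.9% of WT and 61.8% of Btla-/- chains.

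The part of TRBD2 that was kept moved with the call. Among TRBJ2 chains with a TRBD2 run of 9 or more bases, runs that kept all 7 G were called TRBD2 in 218 of 272 WT (80.1%) and 269 of 339 Btla-/- chains (79.4%). Runs that did not keep all 7 were called TRBD2 in 42 of 333 (12.6%) and 64 of 417 (15.3%). At a length of 11 bases, over both libraries, GACTGGGGGGG was called TRBD2 in 65 of 65 chains and ACTGGGGGGGC in 48 of 49. GGGACTGGGGG, of the same length and also with the T, was called TRBD2 in 6 of 137 chains, TRBD1 in 23 and neither in 108. GGACTGGGGGG, of 11 bases and without all 7 G, was called TRBD2 in 15 of 55. The split was smaller for shorter runs. At 10 bases, CTGGGGGGGC was called TRBD2 in 67 of 97 chains and ACTGGGGGGG in 8 of 25. The most often called run of 10 bases without all 7 G was GACTGGGGGG, with 20 of 82. At 9 bases, CTGGGGGGG was called TRBD2 in 13 of 61 chains and TGGGGGGGC in 12 of 39. Without all 7 G, the most often called run of 9 bases was GGGACTGGG, with 9 of 57.

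TRBD1 runs showed a smaller split, by whether they reached the 3′ end, which is not the criterion used for TRBD2. Runs of 9 or more bases that reached the 3′ end of TRBD1 were called TRBD1 in 150 of 152 WT and 154 of 156 Btla-/- chains, and runs that did not reach it in 275 of 339 (81.1%) and 365 of 458 (79.7%). None of these TRBD1 runs was called TRBD2. The rule by which the annotation gives a D call is not given in the sources used here, and the cause of the split was not tested.

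The ends of the remnants were also counted. Of runs of 9 or more bases, the first base of the segment was kept in 64.0% of 491 WT and 66.0% of 614 Btla-/- TRBD1 runs, and the last base in 31.0% and 25.4%. For TRBD2 runs in TRBJ2 chains the first base was kept in 36.9% of 605 and 37.0% of 756, and the last in 28.6% and 26.7%. The segments cannot be compared in this, because a run of 9 bases leaves at most 3 bases to lose in TRBD1 and 5 in TRBD2, and because the TRBD1 runs came from both J clusters. Within each segment the first base, which faces V, was kept more often than the last. Bases at the joints that match both D and V or J were given to V or J, which can shorten a run at either end.

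With the germline run in place of the call, TRBD2 was the more frequent segment in TRBJ2 chains. Taking the longer run of at least 8 bases as the D segment, TRBD2 made up 72.1% of 1095 WT chains with such a run (69.3 to 74.7%) and 73.9% of 1378 Btla-/- chains (71.5 to 76.2%), where the deposited calls gave 45.2% and 49.3%. By segment it was lowest for TRBJ2-2, 54.9% and 61.5%, and highest for TRBJ2-4, 79.3% and 82.1%. TRBJ2-1 was also at 79.3% in WT. The same minimum run was asked of TRBD1, with 12 bases, and of TRBD2, with 14, so TRBD2 could lose more bases and still be counted. With runs of at least 6 bases, TRBD2 made up 63.0% of WT and 64.2% of Btla-/- TRBJ2 chains with such a run. How far the unequal lengths account for these shares was not tested.

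TRBD2 was rare among TRBJ1 chains by the germline run too. It was the longer run of at least 8 bases in 13 of 411 WT chains (3.16%, 1.69 to 5.35%) and 10 of 517 Btla-/- chains (1.93%, 0.931 to 3.53%). Of these runs, 4 in WT and 6 in Btla-/- held the T of TRBD2, and the others were G runs. As a share of all TRBJ1 chains, runs with the T came to 0.243% (0.0661 to 0.620%) and 0.289% (0.106 to 0.627%). In TRBJ2 chains, 747 of 789 and 959 of 1018 TRBD2 runs held the T, which was 30.0% and 30.9% of all TRBJ2 chains. TRBD1 runs of 8 or more bases were found in 24.1% and 24.4% of TRBJ1 chains and 12.3% and 11.6% of TRBJ2 chains.

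CDR3s with a called D segment were longer than those without one, and CDR3s with TRBD2 were the longest. Mean CDR3 length in amino acids was 14.7 ± 1.29 (SD over 692 chains) for TRBD1, 15.4 ± 1.45 for TRBD2 and 14.0 ± 1.49 for missing calls in WT. In Btla-/- it was 14.7 ± 1.43, 15.5 ± 1.36 and 14.1 ± 1.47. The difference between called and missing was 0.936 residues in WT and 0.878 in Btla-/-, smaller than 1 SD of the chains. Called chains also shared longer runs with germline D than chains without a call, so length and call are not independent and no test was made.

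A difference of the same direction was present within the TRBJ2 cluster alone, where TRBD2 CDR3s exceeded TRBD1 CDR3s by 0.797 residues in WT (15.4 ± 1.46 against 14.6 ± 1.29) and 0.968 in Btla-/- (15.5 ± 1.36 against 14.6 ± 1.46). The size depended on the measure. By medians the difference was 0 residues in WT and 2 in Btla-/-, and with germline runs of at least 8 bases in place of the call it was 0.542 and 0.473. Over both J clusters, CDR3s of 16 or more residues made up 46.6% (40.7 to 52.6%) of WT and 50.1% (44.9 to 55.4%) of Btla-/- TRBD2 chains. The share was 26.4% (23.2 to 29.9%) and 25.9% (23.0 to 29.1%) of TRBD1 chains and 13.8% and 15.3% of missing calls. CDR3s of 12 or fewer residues, also over both clusters, made up 15.8% and 14.2% of missing calls. They made up 4.34% and 4.41% of TRBD1 chains, and 1.42% and 0.826% of TRBD2 chains.

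**Figure D4:**
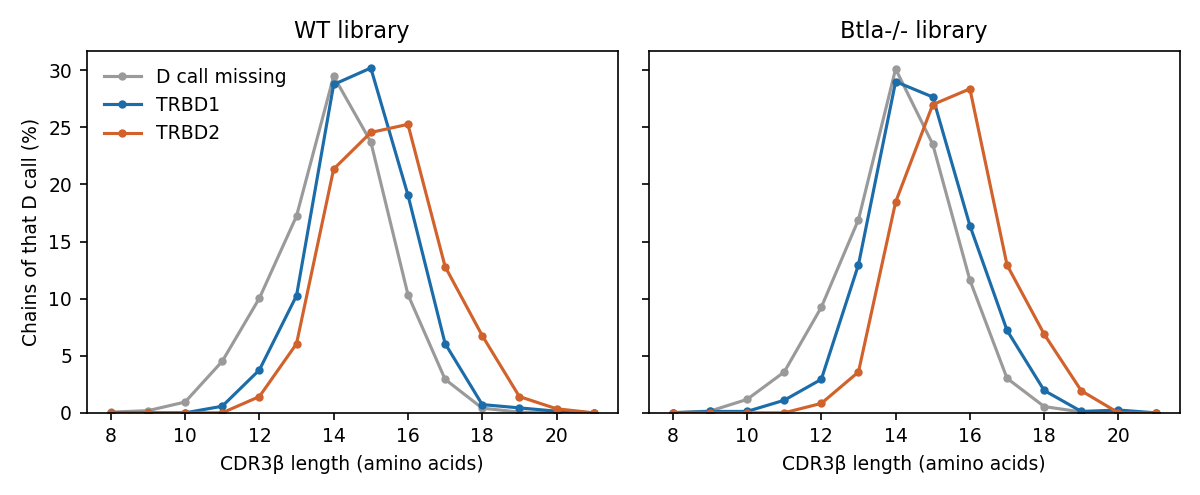
Distribution of CDR3 beta length in amino acids for chains called TRBD1 (blue), TRBD2 (orange) or missing (grey), as percent of the chains with that call in the WT (left) and Btla-/- (right) library. The most frequent length is 14 for missing calls and 16 for TRBD2 in both libraries, and for TRBD1 15 in WT and 14 in Btla-/-.

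The added length lay between V and J, where kept D bases must lie, so this measure and the call are not independent. The stretch between the germline V and J matches averaged 13.0 bases for TRBD1, 15.5 for TRBD2 and 9.62 for missing calls in WT, and 13.2, 15.8 and 9.85 in Btla-/-. The V part varied little, with means of 13.2, 13.2 and 13.6 bases in WT and 13.1, 13.0 and 13.6 in Btla-/-. The J part was shorter in called chains, 18.0 and 17.5 bases against 18.7 in WT and 17.7 and 17.8 against 18.7 in Btla-/-. Read the other way, the call rate was 6.37% and 6.44% for CDR3s of 12 or fewer residues and 50.7% and 51.8% for those of 17 or more, and TRBD1 fell from 88.2% and 92.3% of called chains to 45.9% and 49.7%.

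The residues that a D segment adds depend on its reading frame. TRBD1 codes for GTG when its first base opens a codon (frame 1), for DRG when it is the second base of one (frame 2) and for GQG when it is the third (frame 3). TRBD2 codes for GTG, DWG and GLG in the same frames, so that GTG does not tell the segments apart. None of the 3 frames of either segment holds a stop codon. All 3 frames were used, at 36.7%, 28.7% and 34.6% of the 624 WT TRBD1 chains whose frame could be placed and 34.8%, 31.2% and 34.0% of 750 in Btla-/-. For TRBD2 the shares were 31.8%, 34.3% and 33.9% of 277 and 32.2%, 40.6% and 27.2% of 360. The DWG frame of TRBD2 had overlapping intervals in WT (28.7 to 40.2%) and Btla-/- (35.4 to 45.8%).

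Glycine, which every frame holds, was frequent at the centre of CDR3 in called chains. The call and these residues were read from the same bases of each chain, so they are not independent and no test was made. At least 1 of the 3 central residues was glycine in 90.8% of WT and 90.0% of Btla-/- TRBD1 chains, 98.6% and 98.1% of TRBD2 chains, and 62.6% and 62.2% of chains with a missing call. Residues coded by a frame of 1 segment alone differed between the segments. Within TRBJ2 chains, glutamine was among the central 3 in 26.7% and 24.1% of TRBD1 chains and 1.44% and 1.66% of TRBD2 chains. Tryptophan was there in 4.75% and 3.49% of TRBD1 chains and 26.6% and 33.4% of TRBD2 chains. Leucine was there in 6.23% and 6.97% of TRBD1 chains and 25.5% and 18.8% of TRBD2 chains. Arginine, coded by TRBD1 alone, was there in 27.3% and 34.3% of TRBD1 chains and 10.4% and 9.67% of TRBD2 chains. Residues that both segments encode differed as well, again within TRBJ2 chains. Threonine was among the central 3 in 32.6% and 25.7% of TRBD1 chains and 14.7% and 14.1% of TRBD2 chains, and aspartate in 20.5% and 22.5% against 14.0% and 11.9%. Unlike glycine, these residues were not all rarest where the call was missing. In such TRBJ2 chains aspartate was at 23.4% and 22.1%, above both segments in WT and between them in Btla-/-. The others lay between the segments in both libraries. They were glutamine (14.4% and 14.1%), tryptophan (12.5% and 12.3%), leucine (13.1% and 15.2%), arginine (20.6% and 21.0%) and threonine (16.6% and 18.3%).

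Serine and asparagine, which no whole codon of a D frame encodes, were more frequent where the call was missing, and alanine was not. Alanine is in no whole D codon either, but both segments end in GC. In TRBD1 frame 3 and TRBD2 frame 1 this GC opens a codon, which then codes for alanine. Serine was among the central 3 in 22.9% and 22.5% of TRBJ2 chains with a missing call, against 7.72% and 5.90% with TRBD1 and 3.24% and 4.42% with TRBD2. Asparagine was there in 15.8% and 14.4%, against 5.64% and 6.43% with TRBD1 and 0.719% and 2.21% with TRBD2. Alanine was there in 14.3% and 14.0%, against 18.1% and 15.5% with TRBD1 and 16.5% and 15.5% with TRBD2. Other residues that no whole D codon encodes went with serine. Over both J clusters, glutamate was there in 10.0% and 10.3% of missing calls. With TRBD1 it was there in 5.20% and 5.51%, and with TRBD2 in 1.07% and 1.93%. Proline, phenylalanine, valine and tyrosine were also more frequent with a missing call in both libraries.

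**Figure D5:**
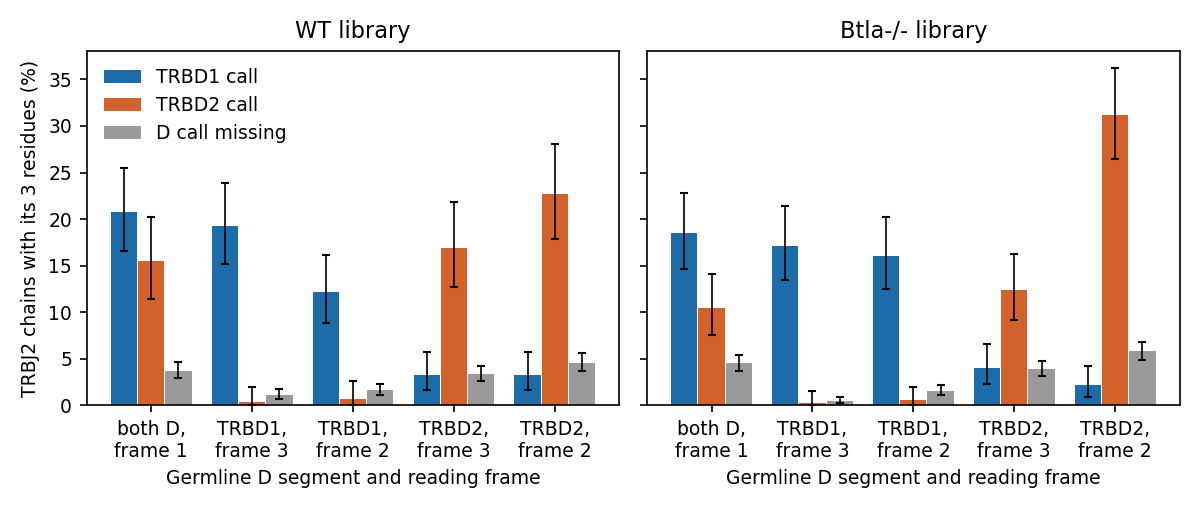
Percent of TRBJ2 chains whose CDR3 holds the 3 residues coded by a germline D segment in a given reading frame, by D call (blue TRBD1, orange TRBD2, grey missing), in the WT (left) and Btla-/- (right) library. Error bars are exact 95% binomial intervals for counting error. TRBD2 frame 2 was seen in 22.7% and 31.2% of TRBD2 chains and in 3.26% and 2.14% of TRBD1 chains.

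The residue motifs were more frequent with the segment that encodes them, but many chains that held one had another call or none. Motif and call were read from the same bases and are not independent. Within TRBJ2 chains, GQG was present in 19.3% and 17.2% of TRBD1 chains and 0.360% and 0.276% of TRBD2 chains, and DRG in 12.2% and 16.1% against 0.719% and 0.552%. DWG was present in 22.7% (17.9 to 28.0%) and 31.2% (26.5 to 36.3%) of TRBD2 chains, and GLG in 16.9% and 12.4%, against 3.26% and 4.02% of TRBD1 chains for GLG. GTG, which both encode, was present in 20.8% and 18.5% of TRBD1 chains and 15.5% and 10.5% of TRBD2 chains. Over both clusters, however, 87 of 162 WT and 137 of 258 Btla-/- chains with DWG had no D call, 53.7% and 53.1%, and 12 and 8 were called TRBD1. Of chains with GLG 50.4% and 59.9% had no call, and 16 of 127 and 18 of 157 were called TRBD1, against 47 and 45 called TRBD2. For the TRBD1 motifs the missing share was lower, 32.5% and 36.7% of chains with DRG and 22.2% and 16.8% of chains with GQG.

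Pooled over all calls, the TRBD2 motifs were rare with TRBJ1. It was used by 2 of 162 WT and 0 of 258 Btla-/- chains with DWG, the latter with an exact interval up to 1.42%, and by 6 of 127 and 5 of 157 chains with GLG. The GLG chains with TRBJ1 were mostly TRBD1 calls, 5 of 6 in WT and 3 of 5 in Btla-/-. TRBJ1 was used by 52.9% and 54.6% of chains with DRG and 53.0% and 61.9% of chains with GQG. In both libraries the motifs of TRBD1 were thus spread over both clusters.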

How the data were processed

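Per the labels and the methods of the study, reads were assembled and annotated by the authors with Cell Ranger 7.2.0 against a GRCm38 reference of V(D)J genes. The deposited contig annotations give V, D, J and C names, the CDR3 and, for each contig, read and UMI counts that were not normalized, for full-length productive contigs of called cells. TRB contigs summed to 23964172 reads and 72650 UMIs in WT (4009 cells) and 20339140 reads and 69417 UMIs in Btla-/- (5014 cells). The deposited summary tables hold no D call needed here and were not used. No step was taken to remove doublets.

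TRB contigs were taken from both libraries and grouped by the deposited D name. D and J coordinates came from GENCODE M21 and germline sequence from RefSeq GRCm38. After germline V and J bases were trimmed, the longest exact run shared with TRBD1 or TRBD2 was found. The central residues were the 3 in the middle of CDR3. Shares have exact (Clopper-Pearson) 95% binomial intervals, which cover counting error only. Reads are not independent molecules, and UMIs were not used as replicates. With 1 library per genotype no test was made.

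Named were TRBD1, TRBD2, J segments with at least 1% of chains, the V subgroups (at least 100 chains in each library) with the 2 highest and 2 lowest call rates and TRBD1 shares, the residues of the germline D frames, and example CDR3s by longest match or most UMIs. Serine, asparagine, alanine, the residues listed after them, TRBV17, TRBV3 and the examples marked so were chosen after their values were seen. The members and lists were chosen with earlier results of these data known. Alternatives were at least 3 UMIs, distinct chains, 1 TRB contig per barcode, barcodes of both libraries left out, barcodes with a TRA contig, D segments from germline runs of at least 6 or 8 bases, other definitions of the centre, medians, and bases in place of residues. Computations used Python 3.11.15, pandas 2.3.3, scipy 1.17.1 and matplotlib 3.10.9, and the matching was tested on simulated data.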

Additional observations from a re-analysis of the deposited data

How the results depend on the processing

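Of 184 recomputed values, 131 stayed within the interval of the main value, 53 moved beyond it and 0 changed sign. Shares cannot change sign, so the last count bears on the length differences alone. The more frequent segment did change. TRBD1 made up 71.1% of called WT and 69.2% of called Btla-/- chains by the deposited calls, but 46.7% and 45.8% with germline runs of at least 8 bases. For shares the limit was the counting interval, and for length differences an interval for the difference of means over chains. Values kept within that limit with at least 3 UMIs, distinct chains, 1 TRB contig per barcode, barcodes of both libraries left out and, chosen after seeing the data, 1 contig per cell, that with most reads. The source of the D segment mattered most (values for WT, then Btla-/-). With germline runs of at least 6 bases the call rate was 63.1% and 64.2%, 55.7% and 56.0% with TRBJ1, and 68.1% and 69.7% with TRBJ2. The TRBD1 share was then 56.7% and 56.4%, 93.2% and 94.7% with TRBJ1, and 37.0% and 35.8% with TRBJ2. The length difference was 1.14 and 1.10 residues for called minus missing and 0.544 and 0.532 for TRBD2 minus TRBD1. With runs of at least 8 bases these were, in the same order, 36.4% and 36.6%, 24.9% and 24.9%, 43.9% and 44.4%, 46.7% and 45.8%, 96.8% and 98.1%, 27.9% and 26.1%, 1.11 and 1.08 residues, and 0.542 and 0.473 residues. With barcodes that had a TRA contig, the Btla-/- call rate was 21.6%, and 21.7% with TRBJ2, the Btla-/- TRBD1 share with TRBJ1 was 100% and glycine in WT TRBD1 chains 94.2%. Glycine in the residues coded between V and J was found in 95.1% and 95.1% (TRBD1), 99.6% and 99.4% (TRBD2) and 68.3% and 69.4% (missing) of chains, and with the first and last 4 residues dropped in 95.5% and 95.2%, 99.6% and 99.4%, and 71.7% and 72.8%. In bases between V and J, called exceeded missing by 4.11 and 4.17. By medians called exceeded missing by 1 residue in Btla-/-, and TRBD2 exceeded TRBD1 by 0 and 2. No paired analysis was possible because each genotype was 1 library, and no replicate could be left out. Rare joints are limited by depth, with upper limits of 2.43% and 1.25% for TRBD2 among called TRBJ1 chains.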
